A study of Mus musculus with 8 samples.

Results

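The 10 genes described here code for the hepatic insulin signalling route: Insr, Irs1, Irs2, Pik3r1, Akt1, Akt2, Foxo1, Foxo3, Ptpn1 and Grb14. They were chosen by name as receptor, substrates, kinase components, transcription factors and inhibitors, and were matched to the Ensembl identifiers of the count tables through the GENCODE mouse annotation. All 10 were found among the 56884 genes counted, and all 10 were among the 12412 genes abundant enough to be tested. Liver RNA came from 18-month-old female C57BL/6J mice killed after an overnight fast, with 1 library per mouse. Obesity had been induced in all of them from 2 months of age by 4 months of feeding rich in fat, which supplied 45% of the energy as lipid, 35% as carbohydrate and 20% as protein. The DIO group (n = 3, replicates 1, 4 and 5) stayed on this diet until 18 months of age. In the DIO + DHA group (n = 5, replicates 1, 2, 4, 5 and 6), a fish oil concentrate replaced 15% of the dietary lipid by weight over the same period. The concentrate held 683.4 mg of DHA and 46.7 mg of EPA per g, in 838.9 mg of n-3 PUFA per g. Both groups were therefore old, female, obese and fasted, and lean or young mice were not analysed here. The comparison asks how long-term replacement of part of the dietary fat by DHA went with the hepatic expression of the insulin signalling genes.

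In the hepatocyte, insulin binds its receptor tyrosine kinase, which phosphorylates the docking proteins IRS1 and IRS2. These recruit phosphatidylinositol 3-kinase through its regulatory subunit, and the lipid it makes brings AKT kinases to the membrane. AKT phosphorylates FoxO factors and so keeps them out of the nucleus, which lowers transcription of gluconeogenic genes, while other branches switch on glycogen and fatty acid synthesis. During fasting, FoxO factors enter the nucleus, and Irs2 and Insr are themselves among the genes they can induce. The protein phosphatase encoded by Ptpn1 and the adaptor encoded by Grb14 both damp the receptor. RNA levels say nothing of the phosphorylation through which most of this route works.

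The libraries held 1723800 to 5690347 counts, and DIO replicate 1 was the shallowest. Levels are given as CPM, the depth-scaled count, with library sizes adjusted by the TMM method. Most reads came from the 3′ ends of transcripts, so levels were not divided by gene length and are compared between mice, not between genes. Fold changes are on the log2 scale, DIO + DHA minus DIO, with edgeR's quasi-likelihood test and Benjamini-Hochberg adjustment over all tested genes, and a gene is said to have risen or fallen where its adjusted p was under 0.05. Libraries of the same diet had a chi-square per degree of freedom of 1.93 to 5.20 against each other. Pairs of libraries from different groups gave 8.81 to 20.2. No library was an exact copy of another, but whether libraries of a group shared RNA cannot be told from these values. The edgeR p-values rest on the spread between libraries of a group, and whether this is the full spread between mice was not tested. The hepatocyte markers, led by Alb and Ttr, summed to 81887 to 87056 CPM in the DIO libraries and to 85498 to 100491 CPM in the DIO + DHA libraries, with all 10 detected. Genes of other tissues differed between the groups as a block. Skeletal muscle genes, led by Acta1 and Tnnt3, summed to 38.3 to 44.2 CPM in the DIO group, where Mb was at 0 counts, and to 1325 to 1432 CPM in the DIO + DHA group, and 15 of 15 rose. Squamous epithelium genes went from 153 to 167 CPM to 234 to 253 CPM. Most of this sum was Perp, with means of 158 CPM in the DIO group and 190 CPM in the DIO + DHA group. The mean of Krt4 went from 0.06 to 25.2 CPM, and 7 of the 10 listed were at 0 counts in every DIO library. Adipocyte genes went from 8.69 to 14.1 CPM to 87.6 to 103 CPM and smooth muscle genes from 5.50 to 9.92 CPM to 24.3 to 40.5 CPM. The adipocyte sum was led by Cidec (means of 9.53 and 48.9 CPM), and Adipoq was at 0.68 and 4.41 CPM. The smooth muscle sum was led by Des (1.52 and 16.9 CPM), which is also in the stellate cell list. Kupffer cell genes, led by C1qb and Cd5l, went the other way, from 702 to 790 CPM to 394 to 428 CPM, with 8 of 10 lower and 1 higher. T and NK cell genes went from 140 to 155 CPM to 49.4 to 56.3 CPM, with 7 of 9 tested lower. Sinusoidal endothelial genes went from 241 to 264 CPM to 174 to 206 CPM, with 3 of 8 lower. In bulk liver, fewer cells of a type and less RNA per cell cannot be told apart, and, apart from the hepatocyte markers, none of these sums overlapped between the groups. The B cell sum (196 to 221 and 188 to 221 CPM) and the cholangiocyte sum (57.3 to 63.6 and 56.9 to 69.6 CPM) overlapped, and the stellate cell sum was 258 to 278 CPM in the DIO libraries and 234 to 250.9 CPM in the DIO + DHA libraries.

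The promoters of the 2 substrate genes are shown because they share motifs known from insulin-regulated genes. The insulin response element core, CAAAACA or its reverse complement TGTTTTG, was described in the promoters of genes that insulin represses through FoxO factors, and CACGTG is the E-box bound by helix-loop-helix factors such as SREBP1, USF and TFE3. RefSeq promoters on GRCm38.p6, each of 250 bases before to 50 bases after a transcript start, were in hand for 9 of the 10 genes, with 14 start sites in all. Both motifs occurred in Irs1 and in Irs2, and neither occurred in the promoters of the other 7 genes. The promoters of Irs1 and Irs2 are printed 5′ to 3′ on the gene's strand with both motifs in capitals, followed by those of Igfbp1 and G6pc1, textbook insulin-repressed genes, with the CAAAACA or TGTTTTG match in capitals. Each sequence matched the GRCm39 genome of the count tables exactly and in 1 place: Irs1 at chr1:82269111-82269410 on the minus strand, Irs2 at chr8:11058880-11059179 on the minus strand, Igfbp1 at chr11:7147537-7147836 on the plus strand and G6pc1 at chr11:101258292-101258591 on the plus strand.
Irs1: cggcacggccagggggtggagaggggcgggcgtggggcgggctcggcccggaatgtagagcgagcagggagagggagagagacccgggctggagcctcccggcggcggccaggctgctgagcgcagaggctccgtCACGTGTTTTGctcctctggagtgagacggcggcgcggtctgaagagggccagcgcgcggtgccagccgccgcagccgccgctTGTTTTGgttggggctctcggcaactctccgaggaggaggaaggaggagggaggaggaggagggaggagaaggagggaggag
Irs2: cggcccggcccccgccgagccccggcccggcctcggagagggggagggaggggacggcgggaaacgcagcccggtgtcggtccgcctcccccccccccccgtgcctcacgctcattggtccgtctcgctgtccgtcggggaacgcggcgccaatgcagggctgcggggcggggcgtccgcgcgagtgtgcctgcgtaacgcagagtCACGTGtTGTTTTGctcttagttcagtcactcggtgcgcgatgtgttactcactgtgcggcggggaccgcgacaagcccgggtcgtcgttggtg
Igfbp1: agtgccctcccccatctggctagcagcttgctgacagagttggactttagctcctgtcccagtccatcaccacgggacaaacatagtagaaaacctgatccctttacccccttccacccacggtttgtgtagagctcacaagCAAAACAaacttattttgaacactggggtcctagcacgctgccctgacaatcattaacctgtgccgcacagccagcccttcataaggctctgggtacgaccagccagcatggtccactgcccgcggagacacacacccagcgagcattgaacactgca
G6pc1: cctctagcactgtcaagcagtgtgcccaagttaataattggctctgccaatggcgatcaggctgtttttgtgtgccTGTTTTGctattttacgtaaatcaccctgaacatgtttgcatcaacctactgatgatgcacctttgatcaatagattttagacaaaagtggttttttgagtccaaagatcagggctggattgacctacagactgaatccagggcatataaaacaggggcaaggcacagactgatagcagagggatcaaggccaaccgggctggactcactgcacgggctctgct

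In Irs1, TGTTTTG began 111 and 32 bases before the start, and the E-box began 115 bases before it, sharing 2 bases with the upstream TGTTTTG. In Irs2, the E-box began 44 bases before the start and TGTTTTG 37 bases before it, with 1 base between them. The match began 108 bases before the start in Igfbp1 and 174 bases before it in G6pc1. These distances are from the RefSeq start, which lies 23 bases from the outermost 5′ base of the counted gene for Irs1, 471 for Irs2, 5 for Igfbp1 and 155 for G6pc1. Searched on both strands, CAAAACA was present in 6.28% of all 32851 promoters of this length and CACGTG in 7.15%, and 134 promoters (0.408%) held both. GTAAACA, a related FoxO motif, was present in 3.65% of promoters. Among the 9 genes with a promoter in hand, it occurred in 1 promoter of Akt1, 161 bases before the start. A match describes these letters in this window and does not show binding.

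Of the 10 genes, 2 rose (Irs2 and Grb14), 2 fell (Pik3r1 and Ptpn1) and 6 did not pass the test. Over all tested genes, 15.2% passed, 7.89% upward and 7.28% downward. The median log2 fold change was -0.14 for the 10 genes and 0.0011 for all tested genes, and the median absolute value was 0.30 against 0.22. For 4 of the 10 genes the libraries of the groups did not overlap, 1 higher and 3 lower, where 18.4% of tested genes had no overlap, 9.54% higher and 8.88% lower. By the log-odds of limma-voom (B above 0), the criterion of the study's methods, 3 of the 10 genes passed, and 6.93% of all tested genes.

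**Figure D1:**
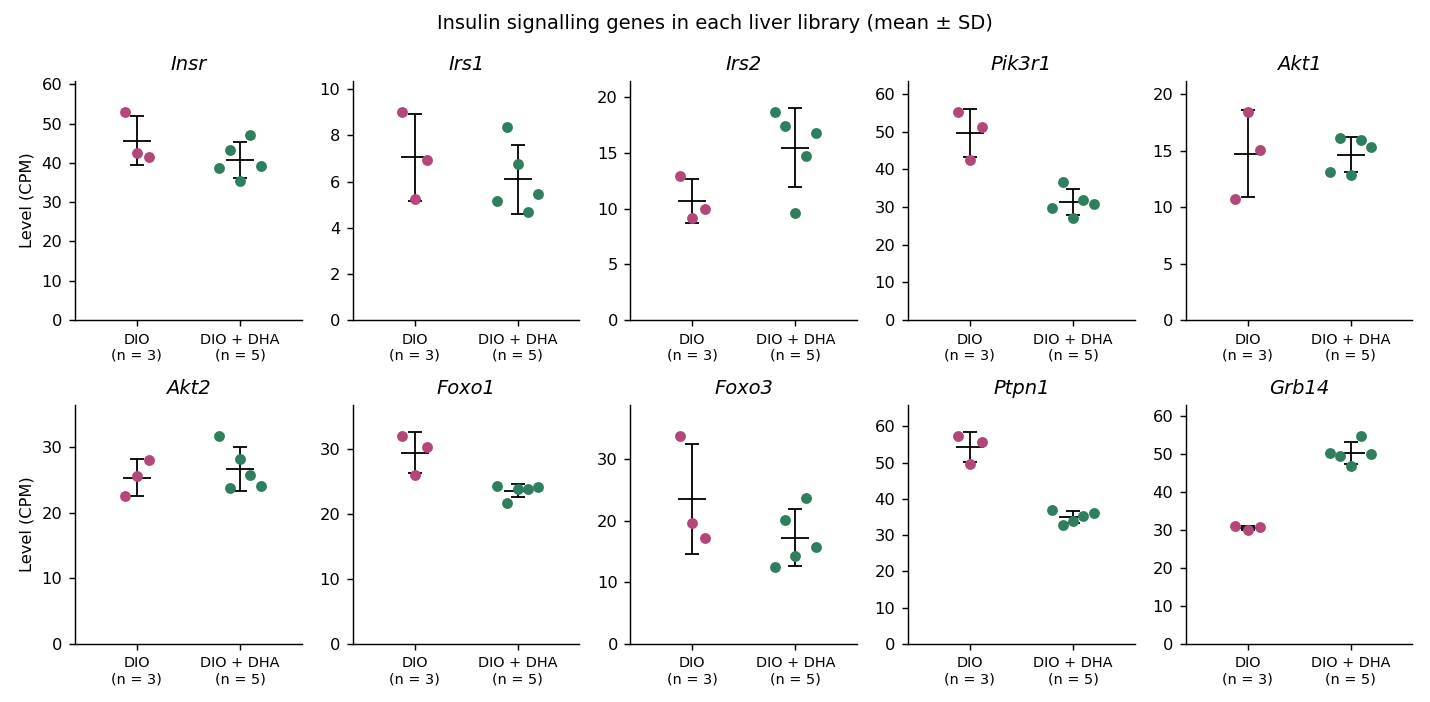
Level of each of the 10 genes in CPM (y axes, starting at 0 and scaled per gene) in the 3 DIO and 5 DIO + DHA libraries, with the mean and SD in black. Grb14 lies higher, and Pik3r1, Foxo1 and Ptpn1 lie lower, in every DIO + DHA library than in any DIO library.

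Insr (ENSMUSG00000005534.11, chr8:3172061-3329617, minus strand, GRCm39) codes for the insulin receptor. Its level was 52.9, 42.6 and 41.5 CPM in DIO replicates 1, 4 and 5, and 38.7, 43.2, 35.3, 47.1 and 39.3 CPM in DIO + DHA replicates 1, 2, 4, 5 and 6. The groups overlapped, and the shallowest library, DIO replicate 1, held the highest value. The means were 45.7 ± 6.28 CPM (SD, n = 3) and 40.7 ± 4.53 CPM (SD, n = 5). The log2 fold change was -0.12 with a 95% interval of -0.34 to 0.10, or -21.0% to 7.37% (adjusted p = 0.563), and it was -0.04 without DIO replicate 1.

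Irs1 and Irs2 code for the docking proteins. Irs1 (ENSMUSG00000055980.3, chr1:82210822-82269137, minus strand) was counted only 16 to 39 times per library. Its level was 9.0, 5.23 and 6.92 CPM in the DIO libraries and 5.16, 8.38, 6.78, 4.68 and 5.46 CPM in the DIO + DHA libraries. The groups overlapped across most of their range. The means were 7.05 ± 1.89 CPM (SD, n = 3) and 6.09 ± 1.5 CPM (SD, n = 5), and the log2 fold change was -0.16 with a wide 95% interval of -0.65 to 0.33 (adjusted p = 0.766).

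Irs2 (ENSMUSG00000038894.8, chr8:11034681-11058458, minus strand), the substrate known in liver for its induction by fasting, was 12.9, 9.20 and 9.94 CPM in the DIO libraries. It was 18.6, 17.4, 9.63, 14.8 and 16.8 CPM in the DIO + DHA libraries. DIO + DHA replicate 4 lay inside the DIO range and the other 4 lay above every DIO library. The means were 10.7 ± 1.98 CPM (SD, n = 3) and 15.5 ± 3.55 CPM (SD, n = 5). Irs2 rose by 0.63 on the log2 scale (SE 0.18, 95% interval 0.26 to 1.00, adjusted p = 0.0116), or by 55.0%. Behind this stand 23 to 94 counts per library. The call did not hold in 6 of 18 alternatives: the adjusted p was 0.0640 with the Wald test of DESeq2, 0.227 with the replicate number as a block in 6 libraries, 0.107 without DIO replicate 4, 0.0588 without DIO replicate 5 and 0.0580 without DIO + DHA replicate 1, and with limma-voom the log-odds B was not above 0. The log2 fold change lay between 0.41 and 0.72 throughout. Of its exon bases, 2.56% are shared with 9530052E02Rik, and reads there were left out of the counts.

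Pik3r1 (ENSMUSG00000041417.16, chr13:101817071-101904725, minus strand) codes for the regulatory subunit that ties phosphatidylinositol 3-kinase to the IRS proteins. Its level was 55.1, 42.6 and 51.3 CPM in the DIO libraries and 29.8, 36.5, 27.1, 31.9 and 30.8 CPM in the DIO + DHA libraries. Every DIO + DHA library lay below every DIO library. The means were 49.7 ± 6.44 CPM (SD, n = 3) and 31.2 ± 3.46 CPM (SD, n = 5). Pik3r1 fell by 0.64 on the log2 scale (SE 0.11, 95% interval -0.87 to -0.42, adjusted p = 1.267e-05), a change of -36.0%. The call held in all 18 alternatives, with a log2 fold change of -0.75 to -0.58.

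The AKT kinases are the next step of the route, and Akt2 is the form best known for insulin's metabolic effects in liver. Akt1 (ENSMUSG00000001729.15, chr12:112620255-112641318, minus strand) was 10.7, 18.4 and 15.1 CPM in the DIO libraries and 13.1, 16.1, 12.8, 15.9 and 15.3 CPM in the DIO + DHA libraries. The DIO + DHA values lay within the DIO range. The means were 14.7 ± 3.86 CPM (SD, n = 3) and 14.6 ± 1.56 CPM (SD, n = 5). Its log2 fold change was -0.09 with a 95% interval of -0.42 to 0.24 (adjusted p = 0.799), and it was 0.10 without DIO replicate 4. Akt2 (ENSMUSG00000004056.16, chr7:27290977-27340251, plus strand) was 22.5, 25.6 and 28.0 CPM in the DIO libraries and 31.7, 23.8, 28.2, 25.8 and 24 CPM in the DIO + DHA libraries. The groups overlapped, with means of 25.4 ± 2.77 CPM (SD, n = 3) and 26.7 ± 3.32 CPM (SD, n = 5). Its log2 fold change was 0.05 with a 95% interval of -0.21 to 0.31 (adjusted p = 0.881), and -0.04 without DIO + DHA replicate 1.

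Foxo1 and Foxo3 code for the transcription factors that AKT holds back. Foxo1 (ENSMUSG00000044167.7, chr3:52175757-52260642, plus strand) was 32.1, 26 and 30.3 CPM in the DIO libraries and 24.4, 21.8, 23.9, 23.9 and 24.2 CPM in the DIO + DHA libraries. All 5 DIO + DHA libraries lay below all 3 DIO libraries. The means were 29.5 ± 3.15 CPM (SD, n = 3) and 23.6 ± 1.06 CPM (SD, n = 5). The log2 fold change was -0.29 (SE 0.13, 95% interval -0.54 to -0.03), and after adjustment over all genes it did not pass (adjusted p = 0.130). Its adjusted p stayed between 0.0958 and 0.427 in the 18 alternatives. Of its exon bases, 7.78% are shared with Gm20402. Foxo3 (ENSMUSG00000048756.12, chr10:42057837-42152751, minus strand) was 33.8, 19.7 and 17.2 CPM in the DIO libraries and 12.5, 20.1, 14.3, 23.7 and 15.7 CPM in the DIO + DHA libraries. The groups overlapped, and DIO replicate 1 stood above all of the others. The means were 23.5 ± 8.93 CPM (SD, n = 3) and 17.3 ± 4.55 CPM (SD, n = 5). Its spread between mice was the widest of the 10 genes in both groups, with coefficients of variation of 37.9% and 26.4% where counting alone would give 11% and 12.8%. The log2 fold change was -0.32 with a 95% interval of -0.77 to 0.14 (adjusted p = 0.402), and it was -0.10 without DIO replicate 1.

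The 2 inhibitors of the receptor moved in opposite directions. Ptpn1 (ENSMUSG00000027540.14, chr2:167773977-167821305, plus strand) codes for PTP1B, the phosphatase that removes phosphate from the insulin receptor. Its level was 57.4, 49.6 and 55.7 CPM in the DIO libraries and 36.9, 32.8, 33.9, 35.1 and 36.0 CPM in the DIO + DHA libraries. The groups were separate, and the DIO + DHA values spanned 32.8 to 36.9 CPM. Their coefficient of variation (4.64%) was below that of counting alone (8.81%), so this span is not a measure of the spread between mice. The means were 54.2 ± 4.11 CPM (SD, n = 3) and 35.0 ± 1.62 CPM (SD, n = 5). Ptpn1 fell by 0.61 on the log2 scale (SE 0.10, 95% interval -0.82 to -0.40, adjusted p = 6.869e-06), a change of -34.5%. Grb14 (ENSMUSG00000026888.15, chr2:64742820-64855331, minus strand) codes for an adaptor that binds the active receptor and blocks its kinase. Its level was 30.9, 29.9 and 30.9 CPM in the DIO libraries and 50.4, 49.6, 46.7, 54.8 and 50.01 CPM in the DIO + DHA libraries. The groups were well apart, with means of 30.6 ± 0.565 CPM (SD, n = 3) and 50.3 ± 2.90 CPM (SD, n = 5). The DIO values lay closer together (coefficient of variation 1.85%) than counting alone would give (9.99%), so their SD is not a measure of the spread between mice. Grb14 rose by 0.73 on the log2 scale (SE 0.11, 95% interval 0.51 to 0.94, adjusted p = 4.62e-07), or by 65.4%. The calls of Ptpn1 and Grb14 held in all 18 alternatives, with log2 fold changes of -0.67 to -0.56 and of 0.69 to 0.75. Pik3r1 and Ptpn1, which are also expressed in blood and endothelial cells, fell in the same libraries in which the Kupffer, T and NK cell and sinusoidal endothelial markers were low, and Irs2 and Grb14 rose in those that held the skeletal muscle, squamous and adipocyte RNA. The part of these other cells in the result was not tested.

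**Figure D2:**
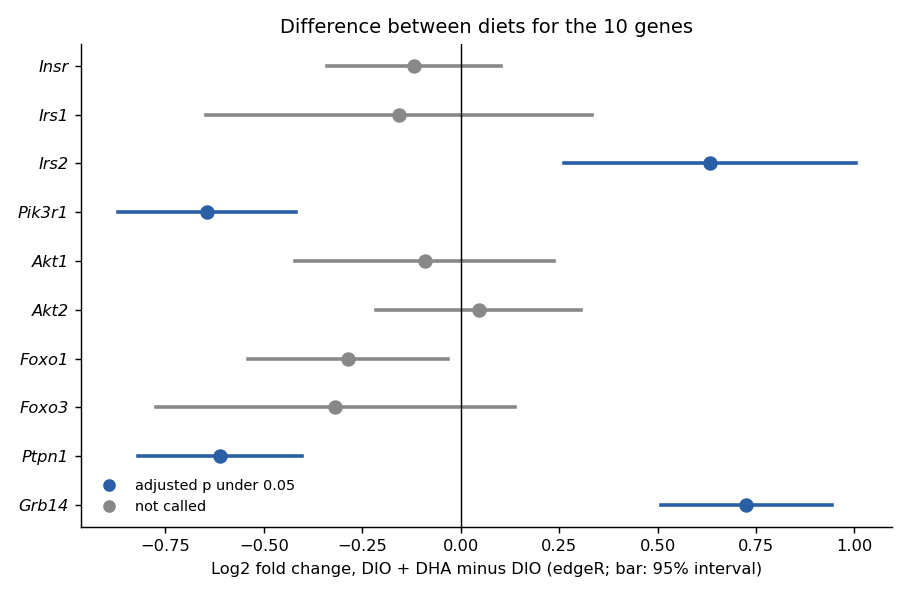
Log2 fold change of each of the 10 genes between the DIO + DHA and DIO groups (x axis), with the 95% interval from edgeR as a bar. The 4 genes with an adjusted p under 0.05 are in blue, with Irs2 and Grb14 to the right of 0 and Pik3r1 and Ptpn1 to the left.

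Ratios of counts inside a library do not depend on how library sizes are scaled. They were computed for 5 pairs of genes with 0.5 added to each count, and are compared here between diets, not read as relative abundance. The log2 ratio of Grb14 to Insr was -0.77, -0.51 and -0.43 in the DIO libraries and 0.38, 0.20, 0.40, 0.22 and 0.35 in the DIO + DHA libraries. It was below 0 in every DIO mouse and above 0 in every DIO + DHA mouse, with a difference of means of 0.88 (exact two-sided permutation p = 0.0179, adjusted over the 5 ratios 0.0446). The log2 ratio of Ptpn1 to Insr was 0.12, 0.22 and 0.42 in the DIO libraries and -0.07, -0.39, -0.06, -0.42 and -0.13 in the DIO + DHA libraries. It was above 0 in every DIO mouse and below 0 in every DIO + DHA mouse, with a difference of -0.47 (exact two-sided permutation p = 0.0179, adjusted 0.0446). This p is the smallest that the 56 splits of 8 libraries allow. Without DIO replicate 5 the difference for Ptpn1 to Insr was -0.38 (exact permutation p = 0.0952).

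The log2 ratio of Irs2 to Irs1 was 0.51, 0.80 and 0.52 in the DIO libraries and 1.83, 1.04, 0.50, 1.63 and 1.6 in the DIO + DHA libraries. DIO + DHA replicate 4 again fell with the DIO libraries, and the difference of 0.71 did not pass the test (exact two-sided permutation p = 0.107, adjusted 0.179). The difference was 0.05 for Akt2 to Akt1 (exact two-sided permutation p = 0.839) and -0.11 for Foxo3 to Foxo1 (exact two-sided permutation p = 0.75), with overlapping groups in both.

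**Figure D3:**
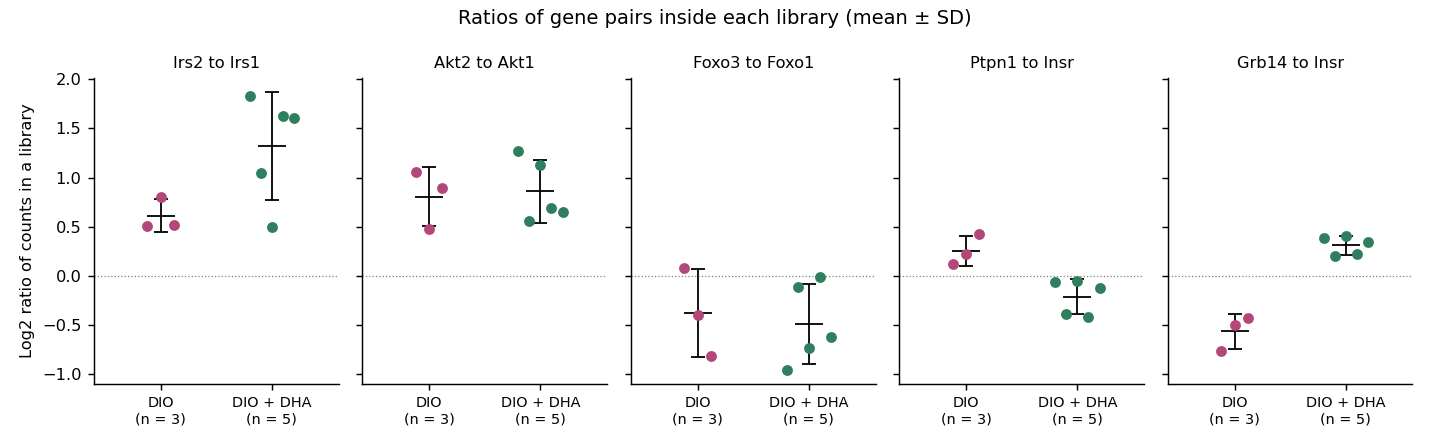
Log2 ratio of the counts of 2 genes inside each library (y axis, shared by the panels) in the 3 DIO and 5 DIO + DHA libraries, with the mean and SD in black. The ratios of Ptpn1 to Insr and of Grb14 to Insr lie on opposite sides of 0, the dotted line, in the groups.

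For each of the 4 genes that passed the test, the genes of most similar pattern were sought among 4182 genes averaging 20 CPM or more, by the root mean square distance between standardized log2 CPM over the 8 libraries. The nearest to Grb14 were Skp1 (0.102) and Hsp90b1 (0.135), against a median distance of 1.27. Those to Ptpn1 were St3gal4 (0.136) and Nnmt (0.140), and those to Pik3r1 were Ppp1r3b (0.140) and Slc22a26 (0.183). Irs2 had no gene as close, with Ik at 0.319 and Atp2a2 at 0.380. With 8 libraries of 2 diets, likeness rests mainly on the difference between the diets.

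The rest of the route was read from lists of genes by function. Beyond the 10 genes, the signalling lists held 66 tested genes, of which 7 rose and 7 fell, with a median log2 fold change of 0.01. Over all tested genes, the shares were 7.89% upward and 7.28% downward. Upstream, 1 of 4 tested genes of the receptor and clearance list rose. This was Ceacam1, which codes for a receptor substrate that promotes insulin clearance by the liver, which went from 99.4 ± 4.97 to 124 ± 11.5 CPM (log2 fold change 0.31, adjusted p = 0.00640). Here and in what follows the errors are SDs over 3 DIO and 5 DIO + DHA libraries. The genes of the IGF receptors, Igf1r and Igf2r, and of insulin-degrading enzyme, Ide, had log2 fold changes of 0.30, 0.14 and 0.24 and did not pass. Insrr, at 0 to 2 counts, was not tested. Among 8 tested substrates and adaptors, Grb2, the adaptor that leads to Ras, fell from 37.6 ± 1.73 to 29.0 ± 3.16 CPM (log2 fold change -0.37, adjusted p = 0.0217). Gab1, a docking adaptor, rose from 2.06 ± 0.253 to 3.88 ± 0.674 CPM (log2 fold change 0.96, adjusted p = 0.0433) on 4 to 22 counts per library.

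Of 6 other tested subunits of phosphatidylinositol 3-kinases, Pik3c2g, a class II enzyme expressed in liver, rose from 1.26 ± 0.819 to 4.14 ± 1.31 CPM (log2 fold change 1.48, adjusted p = 0.00340), on 1 to 24 counts. Of 12 genes of the mTORC1 list, Ddit4, whose product REDD1 restrains mTORC1, fell from 11.1 ± 3.03 to 4.73 ± 0.980 CPM (log2 fold change -1.10, adjusted p = 2.024e-04). Foxo4 was 7.0 ± 2.38 CPM and 5.25 ± 0.374 CPM (log2 fold change -0.28, adjusted p = 0.527), and Foxo6 had 0 counts in every library.

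The glycogen list had 2 genes higher and 2 lower of 6, where 7.89% of all tested genes rose and 7.28% fell. Ppp1r3c and Ppp1r3b, which both code for subunits that bring protein phosphatase 1 to glycogen, moved in opposite directions. Ppp1r3c rose from 10.8 ± 0.707 to 21.9 ± 2.41 CPM (log2 fold change 1.00, adjusted p = 2.069e-06), and Ppp1r3b fell from 58.1 ± 6.49 to 40.7 ± 4.32 CPM (log2 fold change -0.48, adjusted p = 3.886e-04). Pygl, liver glycogen phosphorylase, fell from 152 ± 6.76 to 126 ± 10.3 CPM (log2 fold change -0.27, adjusted p = 0.0108). The remaining call, Gys2, liver glycogen synthase, named after its values were seen, was 100.4 ± 11.4 and 119 ± 8.72 CPM (log2 fold change 0.27, adjusted p = 0.0238) with overlapping groups. Of 22 other negative regulators, 2 rose and 2 fell, against the 7.89% and 7.28% of all tested genes. Socs2, a suppressor of cytokine signalling best known in growth hormone action, rose from 15.1 ± 1.43 to 25.5 ± 1.79 CPM (log2 fold change 0.77, adjusted p = 4.182e-05). Phlpp1, a phosphatase of AKT, rose from 5.64 ± 1.39 to 9.08 ± 1.14 CPM (log2 fold change 0.66, adjusted p = 0.0353). Prkcd, a protein kinase C also named after its values were seen, fell from 7.75 ± 0.840 to 4.97 ± 0.656 CPM (log2 fold change -0.65, adjusted p = 0.0468). The calls of Gab1 and Phlpp1 were lost in 10 of 17 and 9 of 18 alternatives, those of Grb2 and Gys2 in 5 of 18 each and that of Prkcd in 10 of 18. Those of Ceacam1 (2 of 18), Pygl (3 of 18) and Pik3c2g (2 of 17) were also lost, with an adjusted p of up to 0.0693, 0.123 and 0.0555, and the log2 fold change of Pik3c2g ranged from 1.24 to 2.11.

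Downstream, 6 of 13 tested genes that insulin represses or FoxO factors induce rose and 1 fell, against 7.89% and 7.28% of all tested genes. Irs2 and Insr also belong to that list but are not among these 13. Pdk4, which spares glucose by inhibiting pyruvate dehydrogenase, rose from 4.59 ± 0.610 to 23.5 ± 5.22 CPM (log2 fold change 2.27, adjusted p = 9.846e-14). Ppargc1a, the coactivator of fasting metabolism, rose from 7.97 ± 1.24 to 34.7 ± 4.76 CPM (log2 fold change 2.04, adjusted p = 7.004e-16). Both are also abundant in skeletal muscle, whose marker sum was higher in the same libraries, and the part of that tissue was not tested. Mttp, needed for lipoprotein assembly, rose from 68.1 ± 4.21 to 105 ± 5.53 CPM (log2 fold change 0.63, adjusted p = 7.771e-08). Of the genes whose promoters are printed above, named outside the rule after their values were seen, G6pc1, glucose 6-phosphatase, rose from 53.7 ± 1.49 to 80.4 ± 2.60 CPM (log2 fold change 0.59, adjusted p = 1.349e-06). Igfbp1, the other, rose from 27.8 ± 1.25 to 39.4 ± 6.39 CPM (log2 fold change 0.49, adjusted p = 0.00300), and its call was lost in 2 of 18 alternatives, with a log2 fold change of 0.32 and an adjusted p of 0.145 with the replicate block. The list's other calls were Apoc3, an apolipoprotein gene, which rose by 0.29 on the log2 scale (adjusted p = 3.121e-04), and Klf15, a fasting-related factor, which fell by 0.30 on the log2 scale (adjusted p = 0.0234). Pck1, the classical gluconeogenic gene and likewise added after its values were seen, was 882 ± 15.0 and 884 ± 45.9 CPM (log2 fold change 0.0053, adjusted p = 0.969), with overlapping groups.

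Of 9 tested genes that insulin induces, 3 rose and 2 fell, where 7.89% of all tested genes rose and 7.28% fell. Scd1, stearoyl-CoA desaturase, rose from 368 ± 15.0 to 912 ± 54.0 CPM (log2 fold change 1.30, adjusted p = 6.926e-23). Thrsp, a lipogenic gene, fell from 206 ± 10.1 to 128 ± 9.49 CPM (log2 fold change -0.69, adjusted p = 1.385e-10). Of the lipogenic enzymes, Fasn had a log2 fold change of 0.34 (adjusted p = 0.0270) and Elovl6 of 0.57 (adjusted p = 0.00533), and these, with Apoc3 and Klf15, were named after their values were seen. The call of Klf15 was lost in 8 of 18 alternatives and that of Fasn in 6 of 18. The adipocyte marker sum was higher in the libraries where Scd1, Fasn and Elovl6 were higher, and the part of those cells was not tested.

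**Figure D4:**
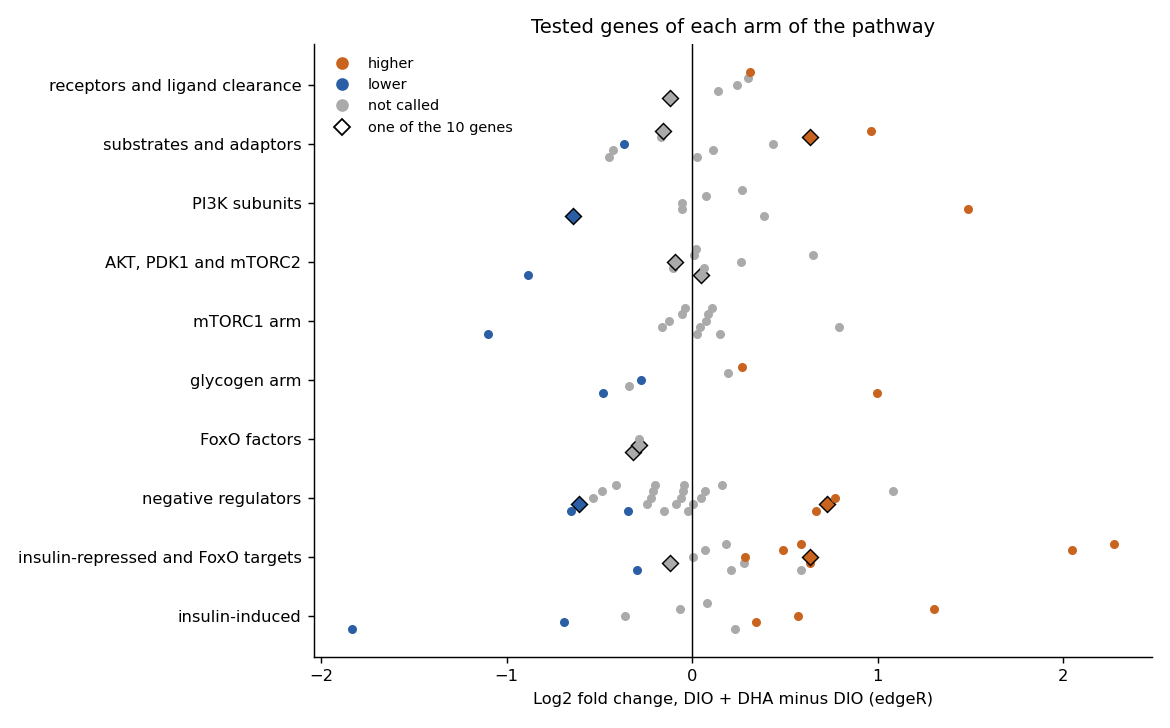
Log2 fold change (x axis, edgeR) of every tested gene in each of 10 functional lists (rows), with genes whose adjusted p was under 0.05 in orange where higher and blue where lower in the DIO + DHA group. Diamonds mark the 10 genes, some of which stand in 2 lists, and the target lists at the bottom hold the points farthest from 0.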

How the data were processed

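Liver poly(A) RNA of 3 DIO and 5 DIO + DHA mice was sequenced with 3′-enriched libraries adapted from SCRB-seq. The authors checked reads with FastQC 0.11.8, trimmed them, aligned them to GRCm39 with STAR 2.7.9a and counted them on GENCODE mouse release 33 exons with featureCounts 1.6.0, and the deposited values are raw counts. Counting was unstranded and used unique alignments, and reads shared by overlapping genes were left out. Whether molecular identifiers were collapsed is not given in the sources used here, so counting errors may be too small. Names came from GENCODE release 39 (56323 of 56884 identifiers) and promoters from RefSeq (GRCm38.p6).

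As in the study's methods, genes with under 5 counts in over 50% of libraries, in both groups, were dropped. Counts were scaled by TMM and tested with edgeR 4.0.16 (quasi-likelihood, robust) in R 4.3.3. The 18 alternatives used DESeq2 1.42.0, limma 3.58.1 (log-odds B with a prior proportion of 0.01), other scalings and filters, a replicate block and leaving out each library. Named pathway genes were up to 3 called genes per list with the smallest p, and every gene of lists with 3 or fewer. The members and lists were chosen with earlier results of these data known. The labels put all libraries in batch 1. Some genes of the lists are not reported here.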

Additional observations from a re-analysis of the deposited data

Results flagged for a closer look

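The level of Foxo1 in DIO + DHA replicate 2, at 21.78 CPM, stood apart from the other 4 libraries of its group, which lay between 23.9 and 24.4 CPM. Dixon's test of the gap against the range passed its critical value of 0.71 for 5 samples. All 5 values together had a coefficient of variation of 4.49%, where counting alone would give 10.7%, so the gap is within counting error. It was 1 of 16 such values, and chance alone flags about 1 group in 20. Without this library Foxo1 was still not called.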

How the results depend on the processing

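Of the 180 values that the 18 alternatives gave for the log2 fold changes of the 10 genes, 172 kept their direction and side of the threshold, 6 lost the call and 2 changed sign. The 6 were all of Irs2. With the DESeq2 Wald test, limma-voom B above 0 or the replicate block, 1 of the 10 genes was called higher, and leaving out a library gave 1 to 2. Lower calls stayed at 2. Over all genes, 860 were called at B above 0, where the edgeR test called 1883, and leaving out a library gave 1432 to 1859. Of the other pathway genes, 16 were higher and 10 lower, and B above 0 gave 8 higher and 4 lower, the DESeq2 Wald test 6 lower, the block 5 lower, and leaving out a library 13 to 15 higher and 5 to 10 lower, with 5 without DIO replicate 4. Akt1 lay between -0.19 and 0.10 with a library left out (0.10 without DIO replicate 4) and Akt2 between -0.038 and 0.14 (-0.038 without DIO + DHA replicate 1). Pck1, near 0, was at -0.019 by library size, -0.030 with the block and between -0.019 and 0.021 with a library left out. Of the 500 values of the 28 other named genes, 422 kept direction and side, 73 lost the call and 5, all of Pck1, changed sign. Leaving out a library moved the log2 ratio difference of Akt2 to Akt1 between -0.11 and 0.18, with -0.05 and -0.01 without DIO + DHA replicates 1 and 4, and that of Foxo3 to Foxo1 between -0.33 and 0.12, with 0.0088 without DIO + DHA replicate 1. Irs2 to Irs1 lay between 0.58 and 0.92, Grb14 to Insr between 0.78 and 0.95, and Ptpn1 to Insr between -0.54 and -0.38, the last without DIO replicate 5 (exact permutation p = 0.0952). Replicate numbers 1, 4 and 5 occur in both groups. Deviations of same-numbered libraries correlated at -0.01 in each of the 3 pairs, and those of differently numbered libraries at -0.06 to 0.06. No pairing by number was seen, but 3 pairs of libraries cannot exclude a weak one. With the replicate block the 6 libraries gave 1570 calls (1655 without it), Irs2 at 0.41, and paired ratio differences of -0.44 for Ptpn1 to Insr and 0.90 for Grb14 to Insr, both at an exact p of 0.25, the smallest that 3 pairs allow. The cause of these moves was not tested. Depth limits Irs1 most, with 16 to 39 counts per library.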
